A study of Mus musculus with 6 samples.

Results

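The 10 microRNAs (miRNAs) described here, miR-139-5p, miR-187-3p, miR-324-5p, miR-221-3p, miR-222-3p, miR-22-3p, miR-184-3p, miR-874-3p, miR-203-3p and miR-135a-5p, were taken as a group of miRNAs linked to epilepsy. They were found by name among the 1926 miRNAs listed in a sequencing study of extracellular vesicles from mouse brain, and all 10 were detected, among 775 detected in all. The study compared 2 groups of 3 libraries: SE, vesicles from the brain tissue of mice after status epilepticus, a prolonged seizure, and CON, vesicles from matched control mice. The time named in the title is 24 hr, and the strain, age and seizure-inducing agent are not given in the sources used here. Whether brains were pooled is not stated either.

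A miRNA is cut from a hairpin precursor, whose arms are named 5p and 3p. One arm is usually loaded into the silencing complex and guides it to messenger RNAs that pair with its seed, bases 2 to 8 from the 5′ end, and the other arm is mostly degraded. In brain, several of these miRNAs act on excitability or inflammation: miR-324-5p targets the potassium channel Kv4.2, miR-22-3p the ATP-gated receptor P2X7, miR-203-3p the glycine receptor beta subunit, and miR-135a-5p the synapse regulator MEF2A. Vesicles released by cells carry a sample of their miRNAs, so a level in vesicles is not a level in tissue.

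Mature sequences for 8 of the 10 are shown because the seed decides which messengers each can pair with, and because they show which members could act on the same targets. They are from RefSeq (GRCm38.p6), 5′ to 3′, with the seed in capitals.
miR-139-5p: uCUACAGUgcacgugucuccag
miR-324-5p: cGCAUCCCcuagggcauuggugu
miR-221-3p: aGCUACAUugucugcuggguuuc
miR-222-3p: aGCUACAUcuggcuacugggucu
miR-22-3p: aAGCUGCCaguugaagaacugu
miR-184-3p: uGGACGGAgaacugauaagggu
miR-203-3p: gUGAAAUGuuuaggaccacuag
miR-135a-5p: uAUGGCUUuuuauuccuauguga

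Only miR-221-3p and miR-222-3p among these 8 shared a seed. The pair is identical over the first 8 bases and at 11 of 23 positions in all, so that a read of either is told apart by its later bases. Their hairpins lie 504 bases apart on the minus strand of the X chromosome, where miR-221-3p is at chrX:19146307-19146329 and miR-222-3p at chrX:19146901-19146923. In the RefSeq table miR-1928, which was not detected, has the same seed. The other 6 seeds occurred in no other of the 1679 mature mouse miRNA names in that table. The table is not complete, so this does not show that a seed is unique. miR-135b-5p, a relative of miR-135a-5p by seed or family, was detected in these libraries. miR-139-5p, at chr7:101475382-101475403 on the plus strand, lies in an intron of Pde2a, a cyclic nucleotide phosphodiesterase gene. The hairpin of miR-22-3p, an arm at chr11:75463772-75463793 on the plus strand, overlaps exons of its host transcript Mir22hg and of Tlcd2. The hairpin of miR-324-5p, an arm at chr11:70012060-70012082 on the plus strand, overlaps an exon of Dvl2 and, on the opposite strand, an intron of Acadvl. miR-184-3p, at chr9:89802263-89802284 on the minus strand, and miR-203-3p, at chr12:112130927-112130948 on the plus strand, overlap no other annotated gene apart from miRNAs, as is so for miR-221-3p and miR-222-3p. miR-135a-5p comes from 2 hairpins, at chr9:106154140-106154162 on the plus strand and at chr10:92072141-92072163 on the minus strand, the former in an intron of D030055H07Rik and opposite an exon of Glyctk, the latter in an intron of the long non-coding RNA Rmst. Overlaps are of the hairpins with GENCODE vM21 gene models, and an exon overlap may be partial.

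Libraries held 5482407 to 10845434 miRNA reads, with SE replicate 1 the deepest. Levels are in RPM, with each library scaled to a sum of 1000000. Where a miRNA truly had 0 reads, counting error alone leaves room for 3 reads, which is 0.277 to 0.547 RPM depending on the library. A listed 0 may hide 1 read, and the room is then larger. In the authors' deposited RPM table the miRNA names went with the SE columns only, and the CON rows were first put back under their names through the authors' base means. Every CON value here is under its name as put back. The neuronal miRNAs miR-124-3p, miR-9-5p, miR-128-3p and miR-127-3p summed to 22216 to 23943 RPM in SE and 23192 to 29554 RPM in CON libraries. Of these 4, miR-124-3p had the higher mean in SE, 2344 RPM against 2071 RPM in CON libraries. The other 3 had the lower mean in SE. Of the red cell miRNAs, miR-144-3p was listed at 0 in every library and miR-451a in 5 of 6. miR-486a-5p and miR-486b-5p, listed as a single entry, stood at 16.8 to 32.2 RPM in all 6. Whether the replicates are different animals is not in the labels, and the spread that the p-values rest on may be technical. Directions follow the column labels, for which the data hold no direct check. Since RPM are shares of a library, fewer vesicles from one cell type and less miRNA per vesicle cannot be told apart.

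The 10 miRNAs lay in the upper and middle range of abundance in these vesicles, from rank 20 to rank 327 of the 775 detected. Together they took 0.735% ± 0.0609 (SD, n = 3) of an SE library and 0.777% ± 0.0565 (SD, n = 3) of a CON library, and miR-139-5p alone made up 75.1% of that sum. By mean level over the 6 libraries the order was miR-139-5p (5682 RPM), miR-187-3p (1011 RPM), miR-324-5p (511 RPM), miR-221-3p (138 RPM), miR-222-3p (83.7 RPM), miR-22-3p (81.9 RPM), miR-184-3p (22.7 RPM), miR-874-3p (15.8 RPM), miR-203-3p (8.01 RPM) and miR-135a-5p (6.88 RPM). Neighbours in this order did not overlap in range over the 6 libraries, with 3 exceptions. miR-222-3p and miR-22-3p overlapped, with miR-222-3p higher in 4 of 6 libraries, as did miR-203-3p and miR-135a-5p, with miR-203-3p higher in 4 of 6. miR-184-3p and miR-874-3p overlapped in range, although miR-184-3p was higher in 6 of 6. Reads of different miRNAs can be captured with different efficiency, so the order is that of reads.

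**Figure D1:**
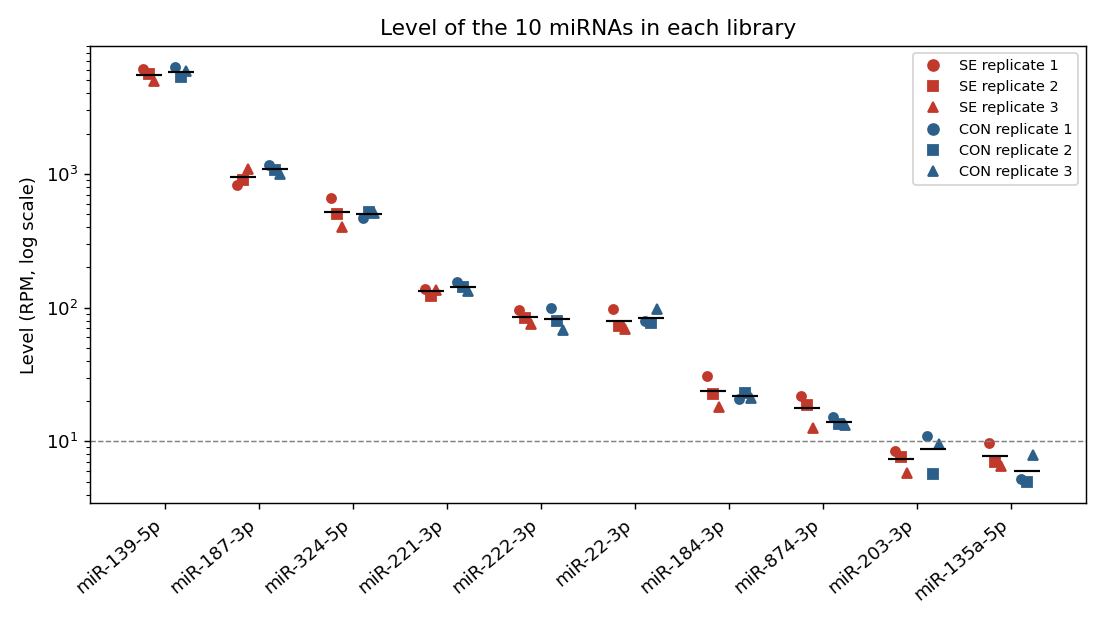
Level of each of the 10 miRNAs in RPM on a log axis, with 1 point per library (red SE, blue CON) and a bar at each group's mean of 3 libraries. The dashed line is the 10 RPM filter of the test: miR-203-3p and miR-135a-5p lie below it by their means, and SE and CON points overlap for all 10.

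None of the 10 miRNAs passed the test between SE and CON. The test was limma-trend on log2(RPM + 1), over the 290 miRNAs whose mean reached 10 RPM, with a Benjamini-Hochberg adjusted p under 0.05 as the threshold. It tested 8 of the 10 and called 0, against 1.03% of all miRNAs tested (3 of 290; 0.345% higher and 0.69% lower in SE), and 0 of the 8 had an unadjusted p under 0.05, against 9.31% of all. The SE and CON values overlapped for all 10. They did not overlap for 14.8% of all miRNAs tested and for 9.29% of all 775 detected. Of the 8, 4 were higher and 4 lower in SE by their fitted value, with a median log2 fold change of -0.02, against -0.07 over all 290. In absolute size the median was 0.10 for the 8 and 0.18 for all. The limma adjusted p of the 8 ran from 0.826 to 0.966. Missing the threshold does not show equal levels, and the intervals below give the differences these libraries leave room for.

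miR-139-5p, best known as a tumour suppressor, stood at 6092, 5552 and 4953 RPM in SE replicates 1, 2 and 3, and at 6337, 5291 and 5867 RPM in CON replicates 1, 2 and 3. CON replicate 1 was the highest library and SE replicate 3 the lowest, and the groups overlapped. With 29007 to 66065 reads per library, this was the most deeply read of the 10. Its log2 fold change, SE over CON, was -0.08 (standard error 0.14), with a limma adjusted p of 0.910. The 95% interval of the difference ran from 0.771-fold to 1.16-fold.

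miR-187-3p stood at 824, 906 and 1093 RPM in the SE libraries and at 1162, 1073 and 1006 RPM in the CON libraries. SE replicates 1 and 2 were lower than all 3 CON libraries, while SE replicate 3 lay among them. The log2 fold change was -0.21 (standard error 0.18), with an interval of 0.669-fold to 1.12-fold and a limma adjusted p of 0.826. The fold change was -0.12 without SE replicate 1 and -0.32 without SE replicate 3. miR-187-3p was also the one tested member whose lowest SE value was in replicate 1.

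miR-324-5p, the regulator of Kv4.2, stood at 666, 502 and 401 RPM in the SE libraries and at 468, 516 and 514 RPM in the CON libraries. The 3 CON values lay within the range of the SE values, whose highest and lowest libraries were replicates 1 and 3. The coefficient of variation was 25.6% in SE and 5.44% in CON libraries. The log2 fold change was 0.04 (standard error 0.21; interval 0.758-fold to 1.38-fold; limma adjusted p = 0.966). Without SE replicate 1 it was -0.15.

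The pair miR-221-3p and miR-222-3p lowers the cell cycle inhibitor p27 and is abundant in vessel and blood cells. miR-221-3p stood at 139, 122 and 135 RPM in the SE libraries and at 157, 142 and 133 RPM in the CON libraries. The SE values were lower than 2 of the 3 CON values and overlapped the third. miR-222-3p stood at 95.8, 84.3 and 75.2 RPM in the SE libraries and at 98.7, 80.1 and 68.3 RPM in the CON libraries, so that the CON libraries held both the highest and the lowest value. The log2 fold changes were -0.12 (standard error 0.20) and 0.06 (standard error 0.22), with limma adjusted p of 0.893 and 0.961. The intervals ran from 0.688-fold to 1.23-fold for miR-221-3p and from 0.756-fold to 1.43-fold for miR-222-3p. Although they share a seed and neighbour each other in the genome, they were not at equal levels: miR-221-3p was 1.45 to 1.80 times miR-222-3p in SE and 1.59 to 1.95 times in CON libraries. The log2 ratio was 0.63 ± 0.18 (SD, n = 3) for SE and 0.81 ± 0.14 (SD, n = 3) for CON, a difference of -0.18 (exact permutation test, two-sided, p = 0.3). With 3 libraries against 3, that test cannot give a p below 0.1. Endothelial miR-126a-3p and miR-126a-5p, markers of vessel cells, summed to 4355 to 5240 RPM in SE and 4817 to 6715 RPM in CON libraries, and their part in these 2 levels was not tested.

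miR-22-3p, which lowers P2X7, stood at 96.9, 72.3 and 69.2 RPM in the SE libraries and at 79.6, 76.4 and 97.0 RPM in the CON libraries. Each group held 1 library near 97.0 RPM, SE replicate 1 and CON replicate 3, and the other 4 libraries lay between 69.2 and 79.6 RPM. The log2 fold change was -0.09 (standard error 0.22), with an interval of 0.682-fold to 1.29-fold and a limma adjusted p of 0.935. Without SE replicate 1 it was -0.24, and without CON replicate 3 it was 0.01.

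miR-184-3p, a miRNA of eye and skin epithelium that also acts in neural progenitors, stood at 30.7, 22.4 and 18.1 RPM in the SE libraries and at 20.7, 23.2 and 21.1 RPM in the CON libraries. As for miR-324-5p, the CON values lay within the range of the SE values, with replicate 1 the highest. The log2 fold change was 0.10 (standard error 0.25; interval 0.742-fold to 1.54-fold; limma adjusted p = 0.935), and -0.10 without SE replicate 1. miR-874-3p stood at 21.9, 18.6 and 12.6 RPM in the SE libraries and at 15.2, 13.5 and 13.2 RPM in the CON libraries. SE replicates 1 and 2 were the 2 highest libraries and SE replicate 3 was the lowest of all 6. At 0.29 (standard error 0.27) its log2 fold change had the widest interval of the 8, 0.825-fold to 1.81-fold, with a limma adjusted p of 0.837. It was 0.13 without SE replicate 1 and 0.50 without SE replicate 3.

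**Figure D2:**
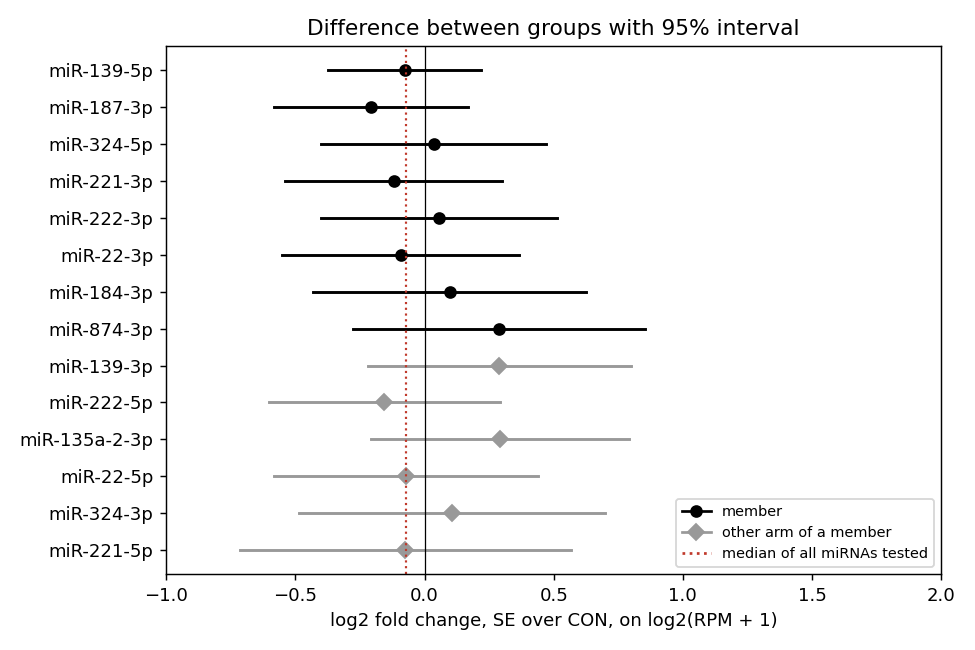
log2 fold change, SE over CON, on log2(RPM + 1), with its 95% interval from limma, for the 8 members tested (black) and the 6 other arms tested (grey), each in order of mean level. Every interval includes 0, and among the members that of miR-139-5p is the narrowest and that of miR-874-3p the widest; the dotted line is the median of all 290 miRNAs tested, -0.07.

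miR-203-3p and miR-135a-5p lay under the filter and were not tested. miR-203-3p, best known from skin, stood at 8.48, 7.65 and 5.83 RPM in the SE libraries and at 10.9, 5.65 and 9.53 RPM in the CON libraries, with 31 to 92 reads per library. The CON libraries held both the highest and the lowest value. miR-135a-5p stood at 9.77, 6.98 and 6.58 RPM in the SE libraries and at 5.18, 4.92 and 7.84 RPM in the CON libraries, with 27 to 106 reads per library. SE replicates 2 and 3 lay below the highest CON value, so these groups overlapped as well. Fitted without the filter, over 775 miRNAs, the log2 fold changes were -0.19 (standard error 0.32) for miR-203-3p and 0.34 (standard error 0.31) for miR-135a-5p, with limma adjusted p of 0.924 and 0.891. The epithelial miRNAs miR-200c-3p, miR-205-5p, miR-141-3p and miR-200b-3p, markers of cells in which miR-203-3p and miR-184-3p are abundant, were all detected and summed to 5.53 to 6.65 RPM in SE and 5.84 to 10.2 RPM in CON libraries. Of these, miR-141-3p was at 0 in all 3 SE libraries and CON replicate 2. Their part in the levels of miR-203-3p and miR-184-3p was not tested.

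In the authors' deposited table of fold changes, 0 of the 10 were called, against 1.04% of its 772 miRNAs with a p-value, and 0 had an unadjusted p under 0.05, against 5.05%. Positive values there go with CON above SE. Of the 10, the authors' deposited table had 3 positive and 7 negative, from -0.47 (standard error 0.39) for miR-135a-5p to 0.15 (standard error 0.39) for miR-203-3p. The 7 negative values thus have SE above CON. They include miR-139-5p at -0.026 (standard error 0.063) and miR-22-3p at -0.0083 (standard error 0.16), both lower in SE by the limma fit. The smallest unadjusted p of the 10 in the authors' deposited table was 0.114, for miR-874-3p at -0.43 (standard error 0.27), and every adjusted p was at least 0.975. These values rest on the same libraries, and the CON values here were put back with that table, so they are no independent support.

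The arms of the members' hairpins were unequal, by amounts that differed widely between hairpins. For 9 pairs of arms with a mean of at least 1 RPM each, the ratio was taken within each library, where scaling cancels. miR-187-3p was 144, 176 and 252 times its 5p arm in SE and 296, 178 and 182 times in CON libraries. miR-324-5p was 41.3 to 54.3 times miR-324-3p over the 6 libraries, and miR-139-5p 18.4 to 38.3 times miR-139-3p. These 3 hairpins thus gave vesicle reads almost wholly from the named arm. miR-221-3p was 10.7 to 18.9 times miR-221-5p and miR-22-3p 3.92 to 5.97 times miR-22-5p. By the ratio of mean levels, 1.48, miR-222-3p was the closest to balance of the arms that led. It was 1.73, 1.65 and 1.42 times miR-222-5p in SE, and 1.72, 1.52 and 0.989 times in CON libraries. In the 4 libraries where miR-874-5p was listed above 0, miR-874-3p was 4.42 to 9.48 times as high. The 5p arm of miR-222 reached the level of its 3p arm in CON replicate 3. miR-184-5p and miR-203-5p were at 0 in all 6 libraries.

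miR-135a was the exception, with the other arm of its chromosome 10 hairpin, miR-135a-2-3p, ahead. The arm named miR-135a-5p is identical in both hairpins, while the opposite arms differ and show which hairpin a read came from. They are printed for that reason (RefSeq, GRCm38.p6, seed in capitals).
miR-135a-1-3p: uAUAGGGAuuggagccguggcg
miR-135a-2-3p: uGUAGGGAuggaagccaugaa
They match at 15 of the 21 positions counted from the 5′ end and differ within the seed. miR-135a-2-3p stood at 26.2, 25.3 and 21.4 RPM in the SE libraries and at 18.8, 22.4 and 17.8 RPM in the CON libraries. It was therefore above miR-135a-5p in 6 of 6 libraries, 2.68, 3.62 and 3.25 times as high in SE and 3.62, 4.56 and 2.27 times as high in CON libraries. miR-135a-1-3p was lower and uneven, at 7.10, 0 and 5.23 RPM in SE and 2.32, 0 and 3.84 RPM in CON libraries. Most reads of the 3p arms thus came from the hairpin on chromosome 10, in Rmst. Against miR-135a-1-3p, miR-135a-5p led, at 1.38 and 1.26 times its level in SE replicates 1 and 3. In CON replicates 1 and 3 it was 2.23 and 2.04 times as high. miR-135b-5p, of the same family, stood at 1.66 to 4.33 RPM in SE and 0.894 to 2.31 RPM in CON libraries, and miR-135b-3p was at 0 in all 6.

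**Figure D3:**
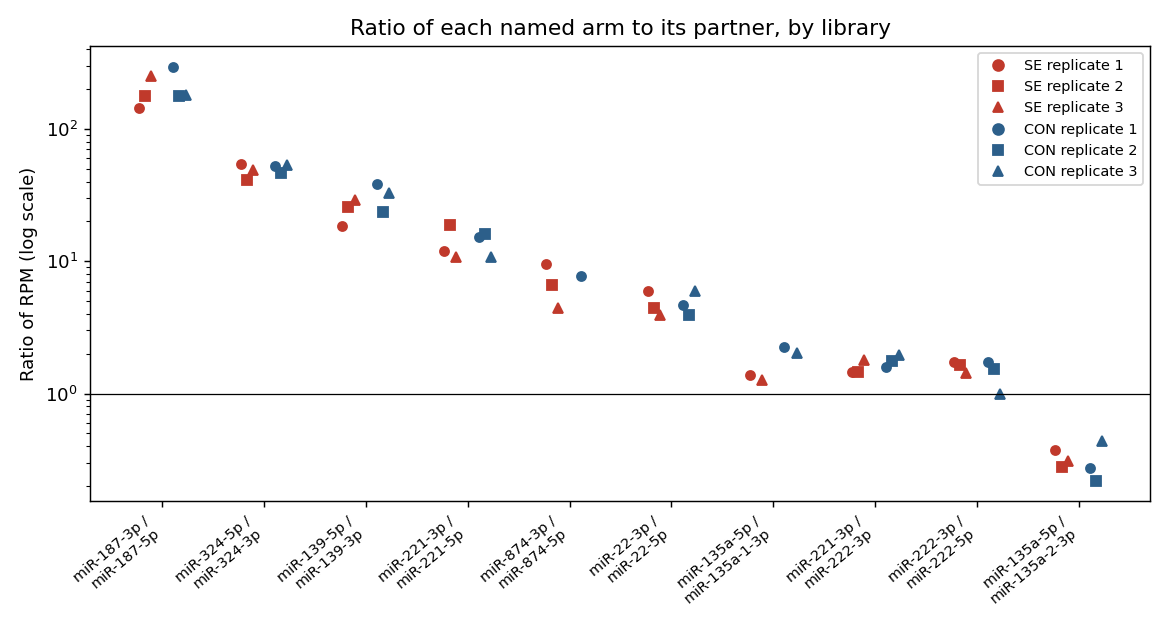
Ratio of the RPM of each named arm to its other arm, and of miR-221-3p to miR-222-3p, on a log axis with 1 point per library (red SE, blue CON); the line marks a ratio of 1, and libraries whose other arm is at 0 have no point. miR-135a-5p against miR-135a-2-3p lies below 1 in every library, and SE and CON points overlap for the ratios with 6 points.

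No log2 ratio, taken with 1 RPM added to each value, separated the groups. Over the 10 ratios, with the pair ratio included, the exact two-sided permutation p ran from 0.2 to 1.0 and each adjusted p was 1. For miR-874-3p over miR-874-5p the difference of the log2 ratio was -1.06, with an exact permutation p of 0.2. Its size depends on the amount added to each value: it was -1.59 with 0.5 RPM and -0.22 with 5 RPM. The 5p arm stood at 2.31, 2.83 and 2.84 RPM in SE and at 1.97, 0 and 0 RPM in CON libraries, from 25, 17 and 19 reads in SE and 11 reads in CON replicate 1. The SE and CON values of miR-874-5p did not overlap, as was so for 9.29% of all 775 detected miRNAs. miR-139-3p stood at 331, 216 and 171 RPM in SE and at 165, 226 and 179 RPM in CON libraries. SE replicate 1 was the highest library, and the other SE libraries lay among the CON values. The log2 ratio of miR-139-5p to it was 4.57 ± 0.34 (SD, n = 3) for SE and 4.94 ± 0.36 (SD, n = 3) for CON, with an exact permutation p of 0.3. Of the 11 other arms, 6 were tested by limma and 0 called, with adjusted p from 0.824 to 0.964.

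The spread between replicates also differed among the members. Within groups, the SD of log2(RPM + 1) was 0.11 for miR-221-3p and 0.14 for miR-139-5p, and 4.83% and 10% of all miRNAs tested had a smaller one. It was 0.27 for miR-324-5p and 0.28 for miR-874-3p, near the median of 0.25. The counting of reads alone would give an SD of 0.00754 for miR-139-5p, 0.0255 for miR-324-5p and 0.138 for miR-874-3p. The half-width of the 95% interval was 0.30 for miR-139-5p and 0.56 for miR-874-3p on the log2 scale, the smallest and the largest of the 8.

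**Figure D4:**
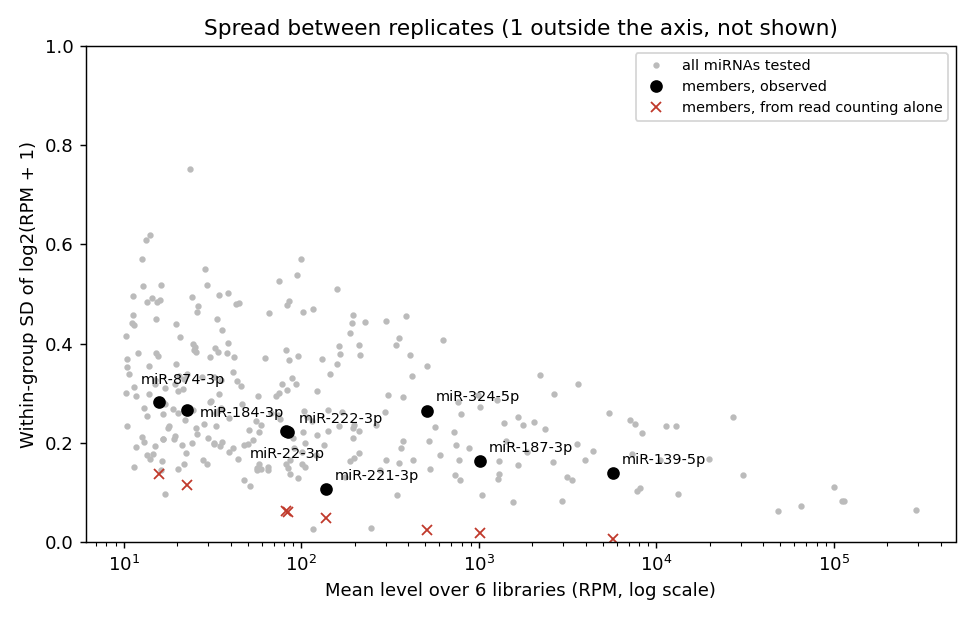
Within-group SD of log2(RPM + 1) against mean RPM (log axis) for all miRNAs tested (grey; 1 with a larger SD is outside the axis), with the 8 members tested (black) and the SD that read counting alone gives them (red crosses). miR-221-3p has the lowest SD of the 8, and every cross lies below its member's observed value.

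One library was most often the highest of the SE group. SE replicate 1 held the highest SE value for 7 of the 8 tested members, all but miR-187-3p, and for 61% of all 290 miRNAs tested. It is also the deepest library, and the part of depth in these levels was not tested. By the root mean square difference of log2(RPM + 1) values, each centred on its own mean over the 6 libraries, miR-324-5p and miR-184-3p were the most alike of the tested members, at 0.05. Among the 282 tested non-members the nearest to both was miR-127-5p, at 0.04 for miR-324-5p and 0.07 for miR-184-3p, where the median non-member lay at 0.27 and 0.29. miR-139-5p lay nearest to miR-125a-5p (0.03), miR-222-3p to miR-409-3p (0.05), miR-22-3p to miR-27b-5p (0.06) and miR-221-3p to miR-337-5p (0.07). miR-187-3p (nearest miR-370-5p, 0.10) and miR-874-3p (nearest miR-346-5p, 0.11) had no neighbour as close. These distances describe 6 libraries and carry no test.

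**Figure D5:**
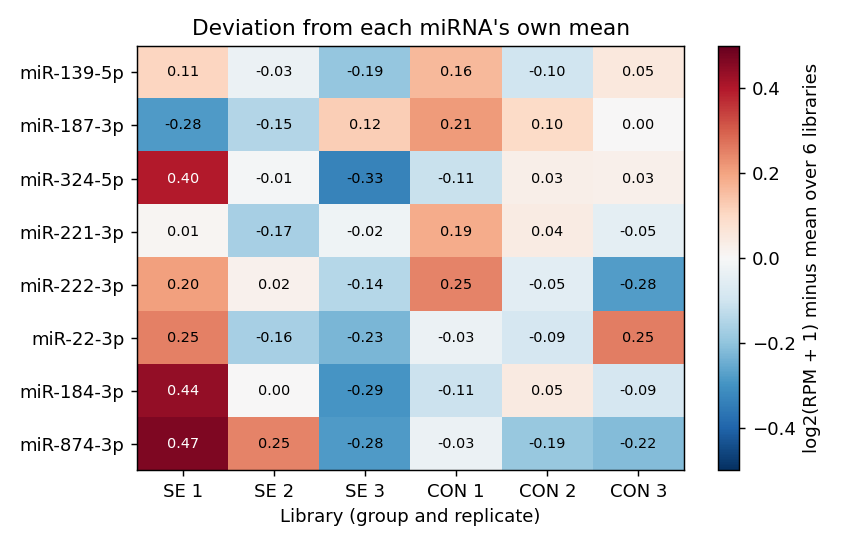
log2(RPM + 1) of the 8 tested members in each library, minus the member's own mean over the 6 libraries (red above, blue below, value printed in each cell). SE replicate 1 is 0.40, 0.44 and 0.47 above the mean for miR-324-5p, miR-184-3p and miR-874-3p, and at -0.28 for miR-187-3p.

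A wider list of 24 other miRNAs linked to epilepsy was counted in the same fit. Of its 21 tested members, 2 fell and 0 rose in SE libraries, against 0.69% lower and 0.345% higher among all 290 tested. The 0.69% is made up of these same 2 miRNAs, so it is no separate background for them. They were miR-155-5p, a product of activated myeloid cells, at a log2 fold change of -2.02 (standard error 0.21), and miR-21a-5p, of reactive glia, at -1.72 (standard error 0.23). Their limma adjusted p were 4.36e-06 and 0.000105. The median over the 21 was -0.24, against -0.07 over all 290, and 7 of the 21 had groups without overlap, against 14.8% of all tested. The wider list was drawn up with earlier results of these data known, so its counts are a description and were not compared by a test.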

How the data were processed

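RNA was extracted with a miRNeasy kit and made into QIAseq miRNA libraries, per the labels' protocols. The submitters' processing notes name mm9 and DESeq2; the aligner, the counter and any use of molecular identifiers are not given in the sources used here. The authors' deposited RPM table lists 1926 miRNAs. The authors' deposited table of fold changes gives, per the file headers, base means (a signal: normalized counts averaged over libraries), log2 fold changes, the test score and p-values, raw and adjusted.

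Taking each column's lowest RPM value as 2 reads made every value a whole number of reads within 0.01, so a listed 0 may hide 1 read. Size factors fitted to the base means gave 687 totals for the CON group, and each was matched to a CON row (tolerance 1e-05, largest relative difference 2.07e-09). Of these, 665 took another name; 597 had 1 candidate row, and the candidates of the others held identical reads.

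limma 3.58.1 (R 4.3.3) was fitted with group as the only factor, after being tested on simulated data. Ratios were tested with scipy 1.17.1. The members, lists and tests were chosen with earlier results of these data known. Named miRNAs are the members, their other arms, miR-135b, listed miRNAs that passed, cell type markers, and the nearest non-member of each tested member. A list name inside a merged entry was read from that entry. Alternatives were other pseudocounts (0.5 and 5 RPM), other filters (none, 50 RPM), quantile or median-of-ratios scaling, no trend, a replicate block, CON names as deposited, each library left out and, chosen after seeing the data, limma-voom on the recovered reads.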

Additional observations from a re-analysis of the deposited data

How the results depend on the processing

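The count of members called by limma was 0 under all 16 alternatives, and over the 126 alternative fold changes of the 8 members the lowest adjusted p was 0.593, while 14 of the 126 changed sign. The count of all miRNAs called, 3, was 0 with CON names as deposited, and 3 to 6 with a library left out (6 without CON replicate 2, 5 without CON replicate 3). It was 2 with the 50 RPM filter, and 4 with no filter or with a pseudocount of 5 RPM. Median-of-ratios scaling moved the median of all miRNAs from -0.07 to 0.03; miR-139-5p then stood at 0.029 and miR-22-3p at 0.012. Quantile normalization gave 0.022 for miR-22-3p and 0.048 for miR-187-3p. With CON names as deposited, miR-139-5p was at 0.11, miR-222-3p at -0.013, miR-324-5p at -0.091 and miR-874-3p at -0.041, and the log2 ratio differences were 0.51 for miR-135a-5p to miR-135a-1-3p, -0.014 to miR-135a-2-3p (-0.027 with a pseudocount of 5 RPM) and 0.082 for miR-139-5p to miR-139-3p.

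With a library left out, the fold changes ran from -0.15 to -8.2e-05 for miR-139-5p, -0.32 to -0.12 for miR-187-3p, -0.17 to -0.056 for miR-221-3p, -0.10 to 0.27 for miR-184-3p, -0.24 to 0.011 for miR-22-3p, -0.069 to 0.19 for miR-222-3p and -0.15 to 0.21 for miR-324-5p. The ratio differences ran from -1.10 to 0.35 (miR-135a-5p to miR-135a-1-3p), -0.15 to 0.29 (to miR-135a-2-3p), -0.40 to 0.012 (miR-187), -0.19 to 0.13 (miR-22), -0.26 to 0.097 (miR-221), -0.023 to 0.37 (miR-222), -0.17 to 0.026 (miR-324), -0.57 to -0.18 (miR-139), -1.52 to -0.80 (miR-874) and -0.28 to -0.10 (miR-221-3p to miR-222-3p). The miR-874 difference, -1.06, was -1.59 and -0.22 with pseudocounts of 0.5 and 5 RPM and -0.34 with CON names as deposited. The count of arm ratios without overlap, 0, was 0 to 1. The cause of these moves was not tested. The replicate block left 0 members and 3 miRNAs called in all; same-numbered libraries deviated with correlations of -0.42, -0.25 and 0.04, so the numbers were not taken to pair the samples. The edgeR fit was not run, because the lowest values stood for 2 reads, not 1. Depth limits the members under the filter, with 299 reads of miR-135a-5p and 331 of miR-203-3p over the 6 libraries.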
